A study of Mus musculus with 4 samples.

Results

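The Schlafen genes of the mouse were examined as a family in 4 libraries of macrophage RNA. The members were the 7 protein-coding genes Slfn1, Slfn2, Slfn3, Slfn4, Slfn5, Slfn8 and Slfn9, chosen by symbol, and all 7 were found among the 55536 annotated genes of the tables. Each symbol belonged to 1 gene identifier. The libraries held total RNA, depleted of ribosomal RNA, from the cytosol of C57BL/6J bone-marrow-derived macrophages, phagocytes that differentiate in a dish from cells of the marrow. All 4 had the same history: 100 ng/ml lipid A for 12 h, a washout of 12 h, and 100 ng/ml lipid A again for 15 min. Lipid A is the membrane anchor of lipopolysaccharide and the ligand of Toll-like receptor 4. The labels call the libraries biological replicates 1 to 4, name 1 donor record for all of them, and give neither sex nor age. There was 1 group and no untreated control, so no level below is a response to lipid A. The labels do not say that the replicates came from separate cultures or animals, so p-values measure only the spread between these libraries.

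Schlafen genes encode a family of proteins that restrain cell growth and act against viruses, and many of them are induced by type I interferon. Short members (Slfn1, Slfn2) consist mainly of the Schlafen core, intermediate members (Slfn3, Slfn4) carry an added linker region, and long members (Slfn5, Slfn8, Slfn9) also carry a helicase-like region. Several Schlafen proteins bind or cleave transfer RNA, and Slfn2 is known for keeping T cells and monocytes quiescent and for shielding transfer RNA from cleavage.

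All 7 members lie on chromosome 11 (mm10) within 264 kb. From the proximal end they are Slfn5 (chr11:82951349-82964840, forward strand), Slfn9 (chr11:82978390-82991830, reverse) and Slfn8 (chr11:83002158-83020810, reverse). The pseudogene Slfn10-ps (chr11:83028130-83040042, reverse) follows, then Slfn2 (chr11:83065112-83070678, forward), Slfn1 (chr11:83116849-83122670, forward), Slfn4 (chr11:83175186-83190216, forward) and Slfn3 (chr11:83191330-83215154, forward). The highest member, Slfn2, lies in the middle of the cluster, and the lowest, Slfn4, lies directly before Slfn3.

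**Figure D1:**
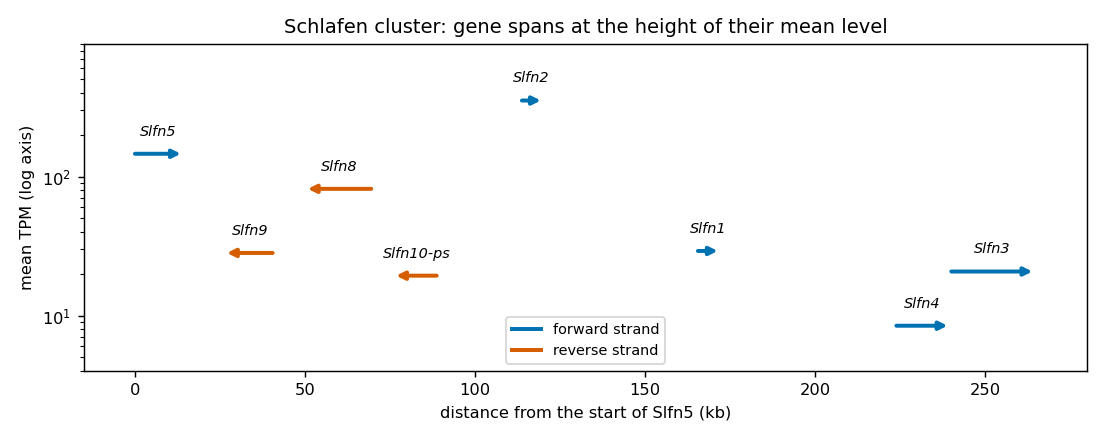
Gene spans of the 7 members and Slfn10-ps as arrows in the direction of transcription, by distance from the start of Slfn5 in kb, drawn at the height of the mean TPM of 4 libraries (log axis). Slfn2, at 352.6 TPM, stands above its neighbours, and Slfn4, at 8.44 TPM, is the lowest.

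Promoter sequences were searched for letters that members share, and the stretches printed here are those that hold them. RefSeq windows (GRCm38.p6) of 250 bases before and 50 bases after the annotated start were available for all 7. The outer gene starts in the annotation of the tables were the same for Slfn2, Slfn3, Slfn4, Slfn9 and 1 of 2 windows of Slfn8. The RefSeq start of Slfn5 lay 753 bases downstream of its outer gene start. Starts of single transcripts were not compared. The longest word present on the gene's strand in the windows of all of Slfn1, Slfn2, Slfn3 and Slfn4 was ACTTCCTGG, which contains the core that ETS-family transcription factors bind. It was found after the sequences were seen, and 0.843% of 32851 windows held it on either strand. It is in capitals here, 5′ to 3′ on the gene's strand:
Slfn1 (chr11:83116721-83116780, forward strand): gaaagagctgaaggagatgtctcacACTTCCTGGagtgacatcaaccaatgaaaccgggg
Slfn2 (chr11:83065032-83065091, forward strand): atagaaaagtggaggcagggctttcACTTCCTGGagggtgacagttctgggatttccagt
Slfn3 (chr11:83191263-83191322, forward strand): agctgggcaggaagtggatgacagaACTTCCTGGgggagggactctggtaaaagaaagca
Slfn4 (chr11:83175088-83175147, forward strand): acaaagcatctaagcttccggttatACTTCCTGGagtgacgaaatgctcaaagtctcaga
In these windows the word began 74, 55, 42 and 73 bases before the start.

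GAAANNGAA, a repeat bound by interferon regulatory factors, matched exactly on either strand in 3 of 7 members, Slfn5, Slfn8 and Slfn9, which are the long ones among the 7. The window of Slfn14, a long family gene with 0 to 3 counts here, also held a match. Of all genes with a window, 9.76% held one. Matches are in capitals, and those that begin with TTC are on the opposite strand:
Slfn5 (chr11:82951922-82951981, forward strand): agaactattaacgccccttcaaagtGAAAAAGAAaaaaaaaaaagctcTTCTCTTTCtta
Slfn8 (chr11:83020823-83020882, reverse strand): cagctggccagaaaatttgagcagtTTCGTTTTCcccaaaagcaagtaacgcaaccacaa
Slfn9 (chr11:82991840-82991899, reverse strand): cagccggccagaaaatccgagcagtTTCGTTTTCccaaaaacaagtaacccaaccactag
The windows of Slfn8 and Slfn9 were 80.5% identical when aligned, so their match is 1 shared stretch rather than 2 separate ones. TTCNNNGAA, the core of the gamma-activated site, matched in 0 of 7 members and in 9.55% of all genes with a window. A match is a description of letters, and no match says only that these letters are not in the window.

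All 7 members were present above a low level, set at 1 TPM. Levels are given as TPM, the deposited transcript abundance per length relative to the whole library, so they can be compared between genes. Each member was above 1 TPM (limma, one-sided, adjusted p of 4.00e-07 or less). Of the 16262 tested genes, 58.2% were above and 35.1% below. Of the tested protein-coding genes, 71.2% were above. The median over members of the mean level was 29.1 TPM, beside 2.72 TPM over all tested genes and 4.85 TPM over the tested protein-coding genes. In sum the members took 587, 525, 606 and 948 TPM in replicates 1 to 4.

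**Figure D2:**
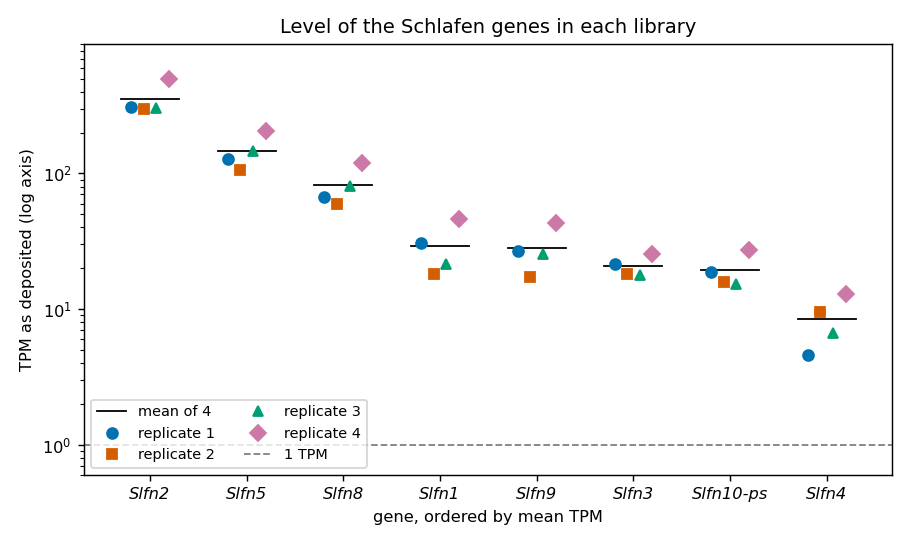
TPM of the 7 members and Slfn10-ps in each library on a log axis, with the mean of 4 as a bar and 1 TPM as a dashed line. Slfn2 lies between 297 and 497 TPM, Slfn4 between 4.60 and 12.9 TPM, and the highest point of every gene is replicate 4.

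Of the short members, Slfn2 measured 309.64, 297.44, 305.95 and 497.20 TPM in order of replicate number, and averaged 352.6 ± 96.6 (SD, n = 4). Its first 3 libraries lay close together, and replicate 4 stood above them. Slfn1, first described as a suppressor of thymocyte growth, measured 30.87, 18.24, 21.52 and 45.93 TPM, with a mean of 29.1 ± 12.4 (SD, n = 4). Replicate 4 was again highest, and replicates 2 and 3 were the lowest. Slfn2 and Slfn1 each have 1 annotated transcript, of 1664 and 1864 bases.

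Of the intermediate members, Slfn3, studied in T cells and in intestinal epithelial differentiation, measured 21.37, 18.13, 17.87 and 25.56 TPM, with a mean of 20.7 ± 3.59 (SD, n = 4). It was the steadiest member, with a highest library 1.43 times its lowest. Slfn4, known from myeloid cells and from stomach inflammation, measured 4.60, 9.58, 6.69 and 12.89 TPM, with a mean of 8.44 ± 3.60 (SD, n = 4). Here the lowest library was replicate 1, and the highest was 2.80 times the lowest. Slfn4 rested on 854 to 2745 expected counts a library.

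Of the long members, Slfn5, an interferon-induced gene with a nuclear protein, measured 126.91, 105.26, 146.81 and 204.59 TPM, with a mean of 145.9 ± 42.7 (SD, n = 4). Slfn8 measured 67.06, 59.52, 81.07 and 118.68 TPM, with a mean of 81.6 ± 26.3 (SD, n = 4). Slfn9, its close sequence relative, measured 26.83, 17.17, 25.60 and 43.21 TPM, with a mean of 28.2 ± 10.9 (SD, n = 4). For all 3, replicate 2 was lowest and replicate 4 highest on the deposited TPM. On this scale replicate 2 was also lowest for 49.8% of all tested genes. With TPM rescaled to an equal protein-coding total, Slfn5 (400) and Slfn8 (211) were lowest in replicate 1. Slfn9 (67.9) stayed lowest in replicate 2.

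The pseudogene Slfn10-ps was transcribed at 18.62, 15.94, 15.38 and 27.47 TPM, with a mean of 19.4 ± 5.59 (SD, n = 4), and was above 1 TPM (limma adjusted p = 1.85e-09). Slfn14, a long member known from platelets and ribosome cleavage, had 0 expected counts in replicates 1 to 3 and 3 in replicate 4, and Slfnl1, a Schlafen-like gene on chromosome 4, had 1 count in replicate 2. In libraries where Slfn14 had 0 counts, up to 0.0109 to 0.0168 TPM (3 counts) remained possible, for counting error only.

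The order of mean levels was Slfn2, Slfn5, Slfn8, Slfn1, Slfn9, Slfn3, Slfn4. Of 21 pairs of members, 19 stood in this order in all 4 libraries. The order and the neighbours compared below come from the means of these same libraries, so part of the agreement is built in. Neighbours were compared by an exact two-sided sign-flip permutation test, for which 4 libraries cannot go below p = 0.125. Slfn2 exceeded Slfn5 by a log2 difference of 1.28 (SD 0.18), Slfn5 exceeded Slfn8 by 0.85 (SD 0.06), Slfn8 exceeded Slfn1 by 1.52 (SD 0.35), and Slfn3 exceeded Slfn4 by 1.37 (SD 0.59). Each of these had the same sign in 4 of 4 libraries and the smallest possible p (exact, 0.125, 0.1875 after adjustment over 6 pairs). Slfn1 and Slfn9 differed by 0.03 (SD 0.20), with Slfn1 higher in 3 of 4 libraries (exact p = 0.75). Slfn9 exceeded Slfn3 by 0.38 (SD 0.35) in 3 of 4 libraries (exact p = 0.25). The direction of these last 2 differences was not the same in all libraries. The difference between Slfn1 and Slfn9 was -0.11 in the second quantification and -0.02 without replicate 1.

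Slfn2 held 53.1% of the summed TPM of the family, with a range of 50.5% to 56.6% over the libraries, and Slfn5 held 21.9%. Slfn8 held 12.2%, Slfn1 4.28%, Slfn9 4.16%, Slfn3 3.18% and Slfn4 1.27%. By expected counts, which are not per length, the order of the first 2 turned: Slfn5, with a leading transcript of 5979 bases, held 42.0% and Slfn2 28.7%.

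Replicate 4 was the highest library for 7 of 7 members on the deposited TPM. There it was also the highest for 48.4% of tested genes and 63.3% of protein-coding genes of at least 1 TPM. Protein-coding genes took 31.7%, 25.3%, 30.0% and 36.6% of the TPM in replicates 1 to 4. With TPM rescaled so that protein-coding genes have the same total in each library, replicate 4 was highest for 5 of 7 members. It was then highest for 16.2% of tested genes and 16.5% of protein-coding genes of at least 1 rescaled TPM. The members highest elsewhere on this scale were Slfn3, at 71.7 in replicate 2 and 69.8 in replicate 4, and Slfn4, at 37.9 and 35.2. The rescaled family total was 1852, 2076, 2021 and 2588 in replicates 1 to 4. Members' median deviation from their own mean in replicate 4 was 0.59 in log2 TPM and 0.33 after rescaling, beside 0.22 and -0.03 for 9432 protein-coding genes of at least 1 TPM. The part of library composition in the remaining difference was not tested.

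**Figure D3:**
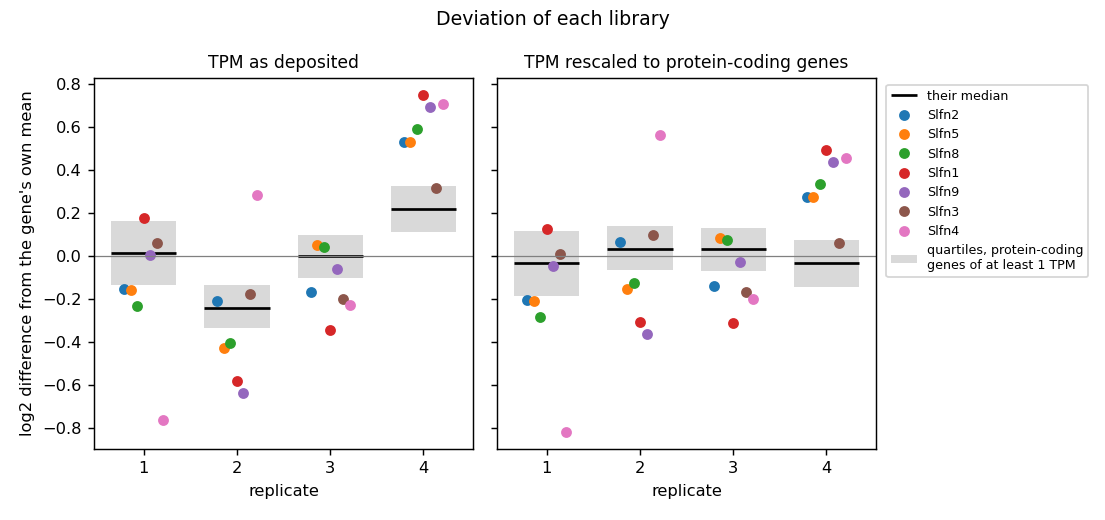
Log2 difference of each member from its own mean in each library, for deposited TPM (left) and TPM rescaled to protein-coding genes (right), with grey bars for the quartiles and a black line for the median of protein-coding genes of at least 1 TPM. In replicate 4 the median member lies at 0.59 (left) and 0.33 (right), and Slfn4 is low in replicate 1 on both scales.

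Members varied unequally between libraries. The biological coefficient of variation (edgeR, expected counts scaled by TMM) was 0.283 for Slfn4, 0.229 for Slfn1, 0.213 for Slfn9, 0.184 for Slfn8, 0.173 for Slfn5, 0.171 for Slfn2 and 0.127 for Slfn3. Among genes of similar expression (1 of 10 equal bins) these stood at percentiles 98.5, 97.1, 91.5, 82.2, 74.6, 73.3 and 35.7, beside medians of 0.13 to 0.15. Slfn4 fell to 0.180 without replicate 1, at percentile 97.4. With each replicate left out, Slfn1 and Slfn4 stayed at percentile 90.6 or higher. The percentile of Slfn3 ranged from 5.10 (without replicate 3) to 62.4 (without replicate 1). Those of Slfn2 and Slfn8 fell to 48.6 and 49.9 without replicate 4. Posterior standard deviations of the expected counts, the deposited measure of read assignment uncertainty, were at most 7.12 counts for any member in any library.

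By the pattern over the 4 libraries, the genes most like each member were found by the root mean square difference of log2 deviations, among 7122 other protein-coding genes whose counts averaged 500 or more. Slfn5 was most like Eng (0.010), Samd9l and Dusp28. Slfn8 was most like Arel1 (0.023), Hinfp and Ankib1, and Slfn9 most like Igtp (0.031), Olfr56 and Ifi44. Slfn2 was most like Plekho2 (0.015), Rps6kb2 and Pnrc2. Slfn1 was most like Phf11a (0.035), Ifi208 and Fcgr4. Slfn3 was most like Selenok (0.007), Faim and Use1, and Slfn4 most like Gdf15 (0.040), Il12rb2 and Gtpbp2. Over 4 libraries many genes share a pattern, and 5 of these 21 genes overlap another gene of at least 1 TPM, among them Igtp with Irgm2 and Olfr56 with Ifi47, so their reads may be shared. Between members, Slfn5 and Slfn8 were alike (0.049), with Slfn8 at rank 36 for Slfn5 and Slfn5 at rank 15 for Slfn8. The member most like Slfn1 was Slfn9 (0.169), at rank 76. For Slfn9, Slfn1 stood at rank 179, after Slfn5 at rank 159.

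The long members split into several transcripts, and the leading transcript by mean share was the same in both deposited quantifications for the 5 members with more than 1 transcript. Per the deposited notes, the input of the first was a set of transcriptome alignments and that of the second was read files. In the first, Slfn5-201 held 86.6% ± 1.20 (SD, n = 4) of the TPM of Slfn5, and in the second 71.8% ± 3.01. Slfn9-201 held 84.5% ± 1.44 in the first and 75.8% ± 2.58 in the second. Slfn8-201 held 51.8% ± 2.80 in the first and 61.0% ± 1.82 in the second. The lowest leading share was that of Slfn8 in the first quantification and that of Slfn4 in the second. Slfn8-203 held 24.4% and 15.5%, and Slfn8-204 4.73% and 16.1%. Slfn8-206 held 2.53% to 14.1% in the first quantification and was listed at 0 in each library of the second. Of the intermediate members, Slfn3-201 held 54.6% ± 3.72 and 66.4% ± 3.25, although Slfn3-202 was level with it in replicate 4 of the first (49.9% against 49.6%), and Slfn4-201 held 69.0% ± 4.79 and 55.9% ± 5.65. The shares moved by more than 1 SD between quantifications for each of the 5 members with several transcripts, without a change of leading transcript by mean.

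**Figure D4:**
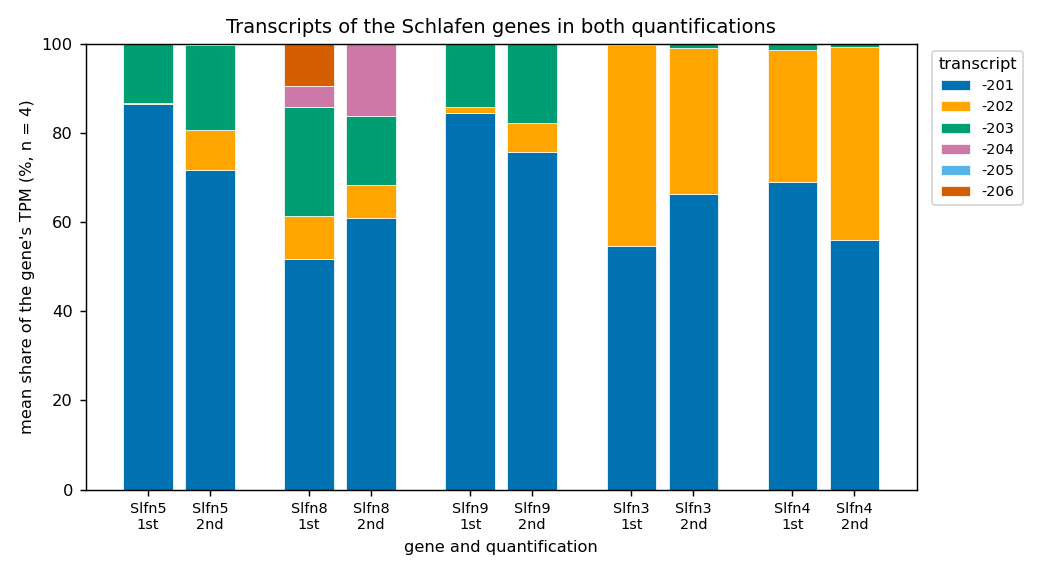
Mean share of each transcript in the TPM of its gene (%, n = 4), for the 5 members with more than 1 transcript, in the first (1st) and second (2nd) quantification; colours are transcript numbers. By these means transcript 201 leads for each of the 5, at 51.8% for Slfn8 in the first and 61.0% in the second.

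At the gene level the first quantification was higher than the second by log2 1.30 to 1.51 for the members, and 0 of 7 passed limma treat for a difference beyond 1 (adjusted p of 0.101 to 0.165, with 3 at an unadjusted p below 0.05). Of 10329 genes tested, 4.28% were called higher and 2.22% lower, with a median difference of 1.40. With both rescaled to protein-coding genes the members differed by -0.13 to 0.04. Slfn4 (-0.13), Slfn9, Slfn3 and Slfn5 (-0.10) lay below 0, and Slfn2 (0.04), Slfn1 and Slfn8 (0.01) above.

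Some transcript sequence was common to several members, and a read that lies wholly within it cannot be placed by sequence alone. A read that reaches beyond such a stretch can differ between the genes. Of the distinct 31-base words in the transcripts of Slfn8, 26.7% also occurred in another family gene, with 19.1% in Slfn9 and 18.7% in Slfn10-ps. For Slfn9 the shares were 13.3% with Slfn8 and 14.3% with Slfn10-ps, and the longest identical stretch was 236 bases, with Slfn10-ps. Slfn3 shared 15.1% of its words with Slfn4, and Slfn4 12.9% with Slfn3. Slfn2 shared 6.98% with Slfn4, and Slfn1 1.64% with each of Slfn3 and Slfn4. Slfn5 shared no word with another family gene, and 7.99% of its words with its antisense gene Slfn5os. In all, 13.35% of its words occurred outside the family, spread over 3965 genes. Slfn3 and Slfn4 also shared 10.8% and 8.72% with the pseudogene Gm11427, at 4.33 TPM. Counting every gene outside the family, the shares were 19.8% for Slfn3, over 168 genes, and 10.1% for Slfn4, over 7. For Slfn1, Slfn2, Slfn8 and Slfn9 they lay between 0.579% and 4.75%. The share of reads that came from such stretches was not analysed here.

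**Figure D5:**
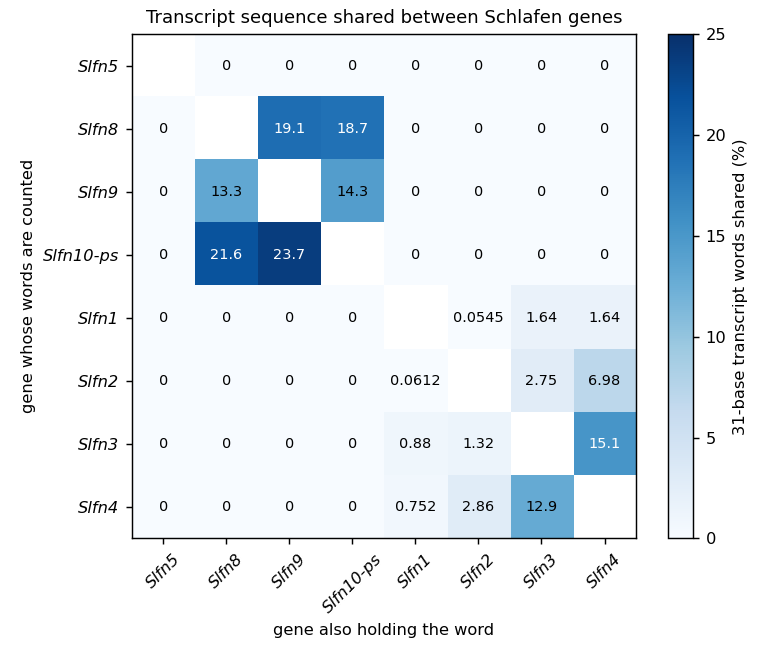
Share of the distinct 31-base transcript words of each gene (row) that also occur in another gene (column), in percent. Sharing falls in 2 blocks, Slfn8 with Slfn9 and Slfn10-ps (up to 23.7%) and Slfn1, Slfn2, Slfn3 and Slfn4 (up to 15.1%, between Slfn3 and Slfn4), while Slfn5 shares none with the genes shown.

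The next 3 loci overlap or adjoin members and could share reads, since the strand setting of the counting is not given in the sources used here. Slfn5os, antisense to Slfn5, measured 0.13, 0.36, 0.15 and 0 TPM. Gm20234, antisense to Slfn2, measured 0.04, 0.69, 0.21 and 0.47 TPM, and 1190001M18Rik, beside Slfn9, measured 0.18 to 0.39 TPM. All 3 were below 1 TPM (limma) on the deposited TPM, but 0 of 3 were below with TPM rescaled to protein-coding genes and 2 of 3 in the second quantification, where Gm20234 reached 3.12 TPM in replicate 2. On the rescaled second quantification 1 of the 3 was above 1 TPM. Within 500 kb of a member lay 63 annotated genes, of which 35 were tested. Besides the 7 members, 18 of 28 tested genes were above 1 TPM, beside 58.2% of all tested genes. Of the 23 annotated protein-coding genes among these neighbours 13 were above, but some of the 23 had too few counts to be tested. That count is therefore not a share of tested genes. AI662270, beyond the end of Slfn3, measured 42.5 ± 8.47 TPM (SD, n = 4), and was named after its level was seen.

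Genes of the pathways around the family were read against 58.2% of all tested genes and 71.2% of tested protein-coding genes above 1 TPM. Of 16 interferon signalling genes, 15 were above 1 TPM, with a median of 33.6 TPM. Among them were Irf7 at 803.6 ± 256 TPM and Stat2 at 145.0 ± 52.1 (SD, n = 4), which encode transcription factors of the interferon response. Ifnb1, the gene of interferon beta, measured 1.09, 1.39, 0.94 and 3.06 TPM and did not pass. All 16 genes passed under 7 of 14 alternatives, among them without replicate 1 and without replicate 3, and 14 passed in the second quantification. Of 10 genes for cleavage, repair and methylation of transfer RNA, 9 were above and Trpt1 was below at 0.36 TPM, with a median of 5.88 TPM. In the second quantification 7 were above and 2 below. Among those above were Rnh1, the ribonuclease inhibitor that binds angiogenin, at 70.3 ± 21.1 TPM, and the RNA ligase gene Rtcb at 20.9 ± 3.09 (SD, n = 4). Of 12 genes of quiescence and growth arrest, 10 were above, with a median of 4.89 TPM, close to the 4.85 TPM of tested protein-coding genes, among them Cdkn1a at 85.7 ± 18.1 (SD, n = 4) and Btg1 at 14.9 TPM. Foxo1 at 0.99 and Klf4 at 0.87 TPM did not pass in either direction. In the second quantification 8 of the 12 were above and 2 below, and 45.1% of all tested genes were above.

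Slfn genes are also expressed in lymphocytes, so markers of other cells were read beside these levels. All 10 macrophage markers were above 1 TPM, summing to 4217 to 6625 TPM. Of 10 T cell markers, 5 were tested, Cd28 and Cd4 were above and 3 were below, with a summed level of 21.2 to 47.9 TPM and Cd3e at 0 to 0.15 TPM. B cell markers summed to 4.88 to 12.6 TPM, with 2 of 6 tested and above (Cd22, Cd79b). The call of Cd79b (limma adjusted p = 0.0479) was lost without replicate 1, 3 or 4, and 1 of the 2 was below in the second quantification. None of 6 natural killer markers had enough counts to be tested (sum at most 0.12 TPM). Neutrophil markers summed to 8.71 to 16.9 TPM, with S100a8 and S100a9 above, 4 below and Ngp undecided. Of the 6 dendritic cell markers, 5 were below and Ccr7 undecided. Erythroid and megakaryocyte markers summed to 70.8 to 147 TPM, nearly all of it Pf4, with Hbb-bs at 0 counts, and 4 tested fibroblast markers were all below. On the deposited TPM, replicate 4, the highest library of each member on that scale, was the highest in the B cell sum. In every other marker sum, that of macrophages included, another library was highest. Replicate 4 was also highest in the sums of interferon signalling genes (2571 TPM, against 1301 to 1742 in the others) and of transfer RNA genes (204 TPM, against 153 to 155). It was not highest in the sum of quiescence and growth arrest genes. All these sums are on the deposited TPM. There replicate 4 was highest for 48.4% of tested genes and 63.3% of protein-coding genes of at least 1 TPM. Sums on the TPM rescaled to protein-coding genes were not taken, so the highest library of a sum may differ on that scale. In bulk RNA, more cells of a type and more RNA per cell cannot be told apart.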

How the data were processed

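Each of the 4 libraries had a gene table and 2 transcript tables from the authors (mm10, M21 annotation, per the deposited notes). Gene and first transcript tables hold expected counts, TPM and posterior values, and the other transcript table holds estimated counts and TPM, per the file headers. The deposited interval bounds, read as signal, belong to the posterior mean TPM: the TPM of Slfn2 lay above its upper bound in 4 of 4 libraries, so they are not printed as errors. Not given in the sources used here were the aligner, the quantifier, versions and the strand setting. Expected counts summed to 30660511, 36681241, 48223718 and 42785115 in replicates 1 to 4, and 0.0238% to 0.383% of them fell on 26345 rows that name no annotated gene, which were left out. Second quantification counts summed to 36212584 to 62013348.

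Genes with at least 10 summed expected counts were tested against 1 TPM with limma 3.58.1 on log2(TPM + 0.1). The 2 quantifications were compared by limma treat (log2 difference beyond 1) on genes with a mean of at least 1 TPM in either. Each test was adjusted by Benjamini-Hochberg over all its tested genes at 0.05. Replicate spread was taken from edgeR 4.0.16 (TMM, tagwise dispersion, its square root) on rounded expected counts, with DESeq2 1.42.0 as an alternative. A difference between members was tested by an exact sign-flip permutation over 4 libraries. Shared 31-base words came from the annotation's transcript sequences on both strands, and promoter windows from RefSeq. Runs used R 4.3.3, Python 3.11.15, pandas 2.3.3, numpy 2.4.6 and matplotlib 3.10.9, and the fits were tested on simulated data. Named genes are all members, other Schlafen loci, the 3 highest and each uncalled gene of the pathway lists, and the 3 most alike genes of each member. The members, lists and tests were chosen with earlier results of these data known. The loci overlapping or beside members were added after their levels were seen. Alternatives were other pseudocounts, filters, scalings, the second quantification and leaving out each replicate. Some genes that the naming rule selects are not reported here. Protein sequences were not used here.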

Additional observations from a re-analysis of the deposited data

Results flagged for a closer look

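For Slfn2, the gap between replicate 4 (497.20 TPM) and the next library (309.64 TPM) was 0.939 of the whole range over the 4 libraries, past the limit for a group of this size. With TPM rescaled to protein-coding genes the gap was 0.477 of the range, and it did not pass. This was 1 of 28 such values computed over members, scales and ends, and chance alone passes about 5% of groups.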

How the results depend on the processing

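All 7 members stayed above 1 TPM under each of the alternatives run, and the 5 members with more than 1 transcript kept the same leading transcript, by mean share, in the second quantification, in posterior mean TPM and by counts. The difference between Slfn1 and Slfn9, 0.03 in log2 TPM, turned to -0.11 in the second quantification, and ranged from -0.025 (without replicate 1) to 0.13 (without replicate 3) when each replicate was left out. With a pseudocount of 1 in place of 0.1, 2 members (Slfn2 at 1.498 and Slfn8 at 1.44 log2) passed for a difference between quantifications, against 0; at that setting 12.8% of all tested genes were called higher, against 4.28%. The median coefficient of variation of the members was 0.184, and ranged from 0.168 (without replicate 4) to 0.212 (without replicate 3). Of the values for single genes and lists, 27 moved beyond the limit set for their kind, 2 passed the threshold, 2 reversed and 438 did none of these. For list counts this limit was a fixed ratio to the main count, not a spread. No paired analysis was possible because there is 1 group, so replicate numbers pair no samples across groups. Depth limits Slfn14 and Slfnl1, which had at most 3 counts in a library, and the level of Slfn4 rested on as few as 854 counts.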
